A study of Mus musculus with 88 samples.

Results

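The 10 genes described here, Nlrp3, Aim2, Mefv, Pycard, Casp1, Casp4, Casp8, Gsdmd, Ripk3 and Mlkl, encode the central parts of the inflammasome, pyroptosis and necroptosis machinery of the mouse. They were found by matching the Ensembl identifiers of the full count table to these symbols, and all 10 were present among 54532 genes. The study took 4 mm cortical punches from C57BL/6 mice of both sexes, either naive or 24 or 72 h after a unilateral controlled cortical impact, in which a piston strikes the exposed cortex. One punch was centred on the injury on the right (ipsilateral, here the injured side) and one came from the contralateral cortex (the opposite side). In naive mice, the right punch carries the ipsilateral label.

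The injured mice were 8 to 9 weeks old at impact. They received isoflurane and buprenorphine (0.05 mg/kg) and had a 3 mm craniotomy. The piston tip measured 2 mm across, moved at 6.0 m/s and indented the cortex by 1 mm for 100 ms. The labels give none of this for the naive mice, and no group had surgery without impact, so impact and surgery with its drugs cannot be told apart. All mice were perfused before collection. The injured side was compared in 13 naive mice (7 females and 6 males), 15 mice at 24 h (7 and 8) and 15 at 72 h (9 and 6). The opposite side had the same groups with 1 more male at 72 h, which gave 16.

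Inflammasomes are protein platforms that sense danger or infection and switch on inflammatory caspases. NLRP3 responds to many forms of cell stress, and AIM2 to DNA in the cytosol, while pyrin is the sensor encoded by Mefv. These sensors recruit caspase-1 through the adaptor ASC, encoded by Pycard, and caspase-1 matures interleukin-1β and interleukin-18. Caspase-1, and mouse caspase-11 (Casp4) after intracellular lipopolysaccharide, cut gasdermin D, whose free end forms pores in the plasma membrane and causes pyroptosis. Necroptosis is another lytic death: the kinase RIPK3 phosphorylates the pseudokinase MLKL, which permeabilises the membrane, while caspase-8 drives apoptosis and restrains this route. In the brain these genes are best known from microglia and infiltrating myeloid cells.

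Promoter windows were looked up in RefSeq (GRCm38.p6, 300 bases around each listed start, most of them upstream) because the genes of the set rose together on the injured side, as described below. Windows were found for 9 of the 10 genes, all but Gsdmd. A set of 5 motifs was searched on both strands. The kappaB consensus, the binding motif of NF-kB, stood in 8.46% of all 32851 windows and in those of 2 members, Casp4 and Nlrp3. These are the members with 2 windows each, and both windows of Casp4 matched. A count of genes is thus not the same unit as a share of windows. The PU.1 core GAGGAAGT, named for a transcription factor of myeloid cells, stood in 3.2% of windows and in those of Aim2 and Pycard. The core of the interferon-stimulated response element (GAAANNGAAA, 3.44% of windows), the gamma-activated sequence (TTCNNNGAA, 8.3%) and AP-1 (5.2%) were found in 0 of the 9 members with a window. A matching window each of Casp4, Nlrp3, Aim2 and Pycard, and that of Mefv, the gene with the largest change, are printed. They run 5′ to 3′ on the strand of the gene in lower case with the matched letters in capitals.
Casp4, chr9:5308599-5308898, plus strand: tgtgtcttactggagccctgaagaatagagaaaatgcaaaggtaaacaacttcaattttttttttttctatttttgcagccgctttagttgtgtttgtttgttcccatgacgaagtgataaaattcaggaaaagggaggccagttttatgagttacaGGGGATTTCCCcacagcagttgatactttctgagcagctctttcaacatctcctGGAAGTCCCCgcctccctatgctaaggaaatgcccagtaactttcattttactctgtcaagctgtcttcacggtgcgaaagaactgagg
Nlrp3, chr11:59541319-59541618, plus strand: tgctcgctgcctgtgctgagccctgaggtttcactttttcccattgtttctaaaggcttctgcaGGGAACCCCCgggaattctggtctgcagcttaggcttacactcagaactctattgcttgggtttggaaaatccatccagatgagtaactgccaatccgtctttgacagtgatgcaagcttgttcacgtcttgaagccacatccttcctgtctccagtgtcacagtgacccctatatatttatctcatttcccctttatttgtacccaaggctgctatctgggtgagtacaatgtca
Aim2, chr1:173420354-173420653, plus strand: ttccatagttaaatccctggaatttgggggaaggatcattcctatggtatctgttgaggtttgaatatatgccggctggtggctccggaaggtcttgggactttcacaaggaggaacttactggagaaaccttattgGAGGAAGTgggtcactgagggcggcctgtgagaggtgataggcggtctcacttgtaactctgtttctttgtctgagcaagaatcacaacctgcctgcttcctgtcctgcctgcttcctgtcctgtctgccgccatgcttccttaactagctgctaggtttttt
Pycard, chr7:127993818-127994117, minus strand: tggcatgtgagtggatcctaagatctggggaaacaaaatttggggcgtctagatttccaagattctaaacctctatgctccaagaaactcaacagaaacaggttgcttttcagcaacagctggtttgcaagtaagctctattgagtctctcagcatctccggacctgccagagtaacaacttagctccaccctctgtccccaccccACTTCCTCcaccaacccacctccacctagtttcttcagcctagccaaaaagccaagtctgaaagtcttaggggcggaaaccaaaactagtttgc
Mefv, chr16:3718075-3718374, minus strand: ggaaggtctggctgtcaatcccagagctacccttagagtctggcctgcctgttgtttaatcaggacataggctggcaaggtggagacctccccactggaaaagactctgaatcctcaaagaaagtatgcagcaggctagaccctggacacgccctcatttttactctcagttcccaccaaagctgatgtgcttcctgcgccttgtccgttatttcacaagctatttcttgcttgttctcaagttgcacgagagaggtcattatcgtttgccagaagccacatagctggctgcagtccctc
In the Casp4 window, 3 kappaB matches began at -93, -92 and -39 from the start, and the first and second overlap each other. The Nlrp3 match began at -186, and a second RefSeq window of Nlrp3, from another start, held none of the motifs. The PU.1 core began at -113 in Aim2 and, on the other strand, at -44 in Pycard. A match is a description of letters, not of a bound site.

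The genes lie on 8 chromosomes (GENCODE M21 on GRCm38). Casp1 (chr9:5298517-5307265) and Casp4 (chr9:5308828-5336783) are neighbours on the same strand. Aim2 (chr1:173350879-173466040) overlaps Cadm3 on the opposite strand, and Pycard, Casp8 and Mlkl overlap Gm45205, Gm37760 and the pseudogene Gm45712. Whether the counting used the strand is not given in the sources used here, so reads from such pairs cannot be told apart.

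Total counts ran from 10604917 to 26357622 per library. Levels are given as CPM, the read count of a gene divided by the library size (scaled by TMM) and brought to the usual common size. The injured-side library of animal LF3, a female at 72 h, stood apart: 18788 genes had a count there, against 22616 to 27177 in the libraries other than both of LF3 and the contralateral one of CM1. LF3 also had the highest summed pan-myeloid (1295.29 CPM), neuron (13368.35 CPM) and red cell (595.98 CPM) markers of all 72 h injured-side punches. Nlrp3, Aim2, Mefv and Mlkl had no count in it. Injured-side results of the members that rest on LF3 are therefore given with and without it. One injured-side library labelled as female at 72 h (PF1) held male transcripts and was kept as labelled. It had 0.11 CPM of Xist, a transcript of female cells, and 147.96 CPM of Y-linked genes. The opposite-side library labelled PF1 had 485.42 and 0 CPM, so this pair does not match in sex. The right punch of PM1, another 72 h mouse of the same batch, showed the reverse, with 489.39 and 0 CPM and a male opposite side. Whether these right punches were exchanged was not tested. In bulk tissue, a change in the number of cells of a type and a change in RNA per cell cannot be told apart.

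In naive cortex, the members were low on both sides. On the opposite side the highest medians per kilobase of exon were 1.41 CPM per kb for Casp1, 1.15 for Gsdmd and 0.85 for Casp8. The naive values that follow are of the right punch. Per kilobase of exon, Casp1 (median 1.19 CPM per kb), Gsdmd (1.11) and Casp8 (0.74) had the highest naive levels on the right side, followed by Pycard (0.65), Aim2 (0.48), Nlrp3 (0.26), Mlkl (0.14), Ripk3 (0.11) and Casp4 (0.07). Mefv had 0 counts in all 13 right punches. The ranges of each neighbouring pair in this order overlapped, and Casp4 was itself at 0 in 5 libraries. At 72 h the order on the injured side was Casp8 (6.14 CPM per kb), Gsdmd (4.95), Pycard (3.52), Casp1 (3.51), Aim2 (2.06), Ripk3 (1.92), Mlkl (1.52), Nlrp3 (1.51), Mefv (0.71) and Casp4 (0.69), again with overlapping ranges between neighbours.

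**Figure D1:**
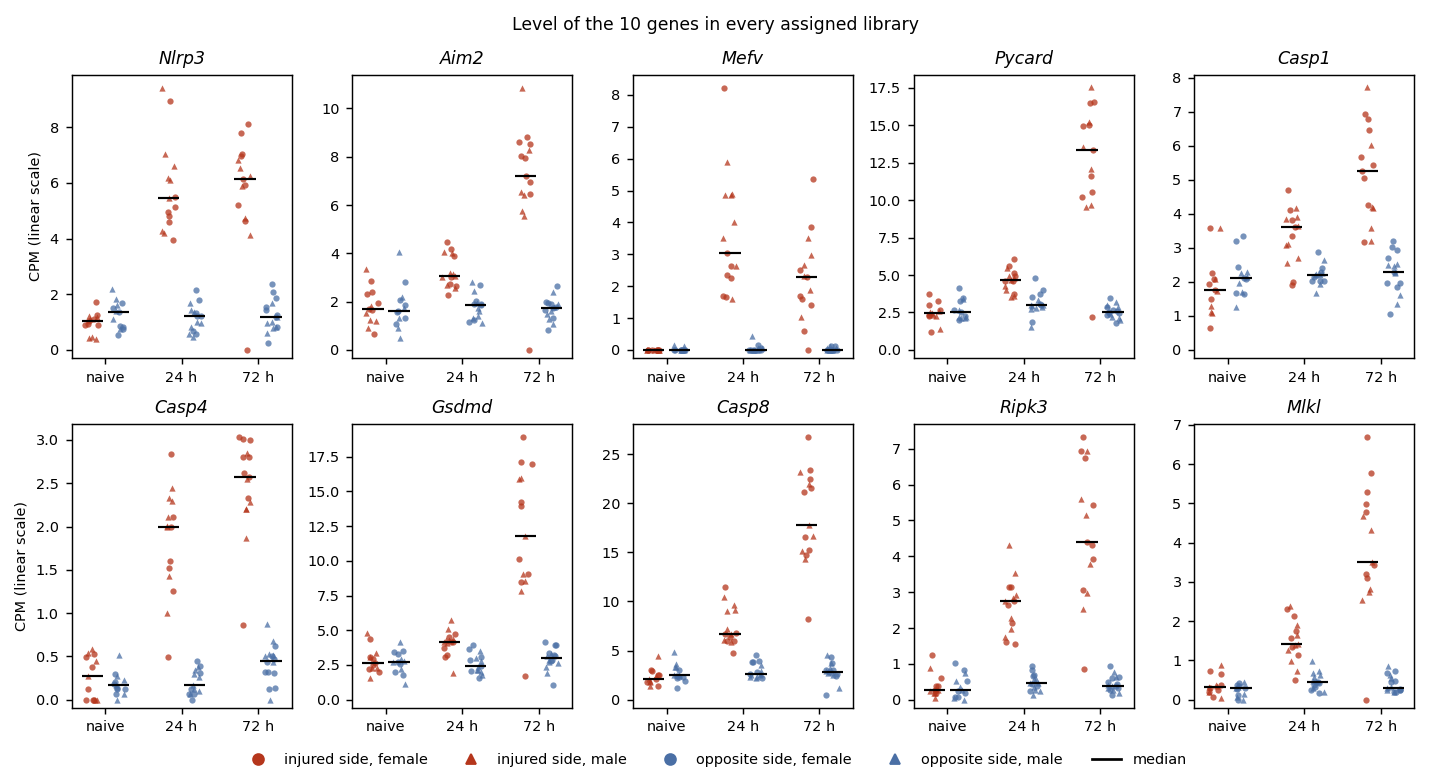
CPM (y axis, linear, 1 scale per gene) of each gene in every assigned library of the injured side (red) and the opposite side (blue) in naive mice and at 24 and 72 h; circles are females, triangles males and lines medians. Injured-side values of Casp8 at 72 h lie between 8.18 and 26.73 CPM, while no opposite-side value of Casp8 passes 4.82 CPM, and the red circle at 0 at 72 h for Nlrp3, Aim2, Mefv and Mlkl is animal LF3.

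The first comparison asked what had changed in the injured cortex 1 day after impact. At 24 h, 9 of the 10 members were higher than in naive cortex, and Gsdmd did not pass the test. Each difference is the mean of the female and the male difference in log2, tested with edgeR's quasi-likelihood test and called at an adjusted p under 0.05 (Benjamini-Hochberg over 19126 genes). On this side 22.8% of all genes tested were called higher at 24 h. The median log2 fold change over the members was 1.86, against 0.01 over all genes. The groups did not overlap at all for 4 members, Casp8, Nlrp3, Ripk3 and Mefv, with every 24 h punch above every naive punch, which held for 5.09% of all genes.

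Among the sensors, Nlrp3 lay between 0.38 and 1.74 CPM in naive punches (median 1.05, n = 13) and between 3.95 and 9.42 CPM at 24 h (median 5.47, n = 15). Its log2 fold change was 2.60 ± 0.25 (standard error, edgeR adjusted p = 1.59e-11). Mefv had no count in any naive punch and lay between 1.59 and 8.23 CPM at 24 h (median 3.05). Its mean of 3.61 ± 1.86 CPM (SD, n = 15) was at least 255-fold higher than the 3 counts over the whole naive group that serve as a floor. Aim2 rose less, from a naive median of 1.68 CPM (0.66 to 3.37) to 3.05 CPM (2.28 to 4.48), by 0.94 ± 0.25 on the log2 scale (adjusted p = 0.00244), and 10 of the 15 punches at 24 h were still within its naive range.

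The adaptor Pycard rose from a median of 2.46 CPM (1.2 to 3.71) to 4.64 CPM (3.56 to 6.04), with 2 of the 15 punches at 24 h, those of FM3 and RM2, inside the naive range. Its log2 fold change was 0.99 ± 0.17 (edgeR adjusted p = 4.45e-06). Casp1, the caspase that inflammasomes activate, went from 1.77 CPM (0.66 to 3.58) to 3.62 CPM (1.91 to 4.71), a log2 fold change of 0.91 ± 0.19 (edgeR adjusted p = 0.000138). The other inflammatory caspase, Casp4, started near the limit of detection at 0.27 CPM (0 to 0.59) and reached 2.00 CPM (0.49 to 2.84). Its log2 fold change of 2.75 ± 0.36 (edgeR adjusted p = 2.44e-08) was larger than that of its neighbour Casp1, though this difference between genes was not tested. A single 24 h punch, of animal FF3, lay within the naive range of Casp4.

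Gsdmd, the pore former, was at 2.64 CPM in naive punches (1.57 to 4.78) and at 4.18 CPM at 24 h (1.91 to 5.71). Its log2 fold change of 0.48 ± 0.21 missed the threshold with an edgeR adjusted p of 0.0589, and the 2 ranges overlapped widely. This call depended on the setting: without LF3 the adjusted p was 0.0185, with DESeq2 it was 0.0376, and leaving out each library in turn gave 0.0185 to 0.117.

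Of the genes that control or carry out necroptosis, Casp8 rose from 2.13 CPM (1.4 to 4.45) to 6.67 CPM (4.75 to 11.44), by 1.69 ± 0.17 in log2 (edgeR adjusted p = 2.4e-11). Ripk3 rose from 0.26 CPM (0.06 to 1.26) to 2.76 CPM (1.55 to 4.33), by 2.76 ± 0.29 (edgeR adjusted p = 1.26e-10), a change close in size to that of Casp4. Mlkl, the substrate of RIPK3, rose from 0.32 CPM (0.05 to 0.88) to 1.41 CPM (0.49 to 2.38), by 2.02 ± 0.35 (edgeR adjusted p = 6.37e-06). Every 24 h punch was above the naive range for Casp8 and Ripk3, whereas 2 punches at 24 h, of FF3 and FM3, lay within the naive range of Mlkl.

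At 72 h, all 10 members were called higher than in naive cortex, and 27.8% of all genes tested were. The fit holds a term for batch, and 10 of the 15 punches came from batch C, which held 72 h mice alone. That term takes up their level, so the fitted 72 h differences rest mainly on the other 5 punches, of batch B. Medians and ranges of CPM are of all 15. The median log2 fold change of the members was 2.61, against 0.06 over all genes. With LF3 in the group, 2 members, Casp8 and Casp4, were above the naive range in every punch, as were 7.74% of genes. Without LF3 this held for 9 members, all but Casp1, and for 12.7% of genes.

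Casp8, the highest per kilobase at 72 h, was at 17.76 CPM (8.18 to 26.73), with a log2 fold change of 2.88 ± 0.23 (edgeR adjusted p = 1.61e-13). Ripk3 reached 4.4 CPM (0.86 to 7.32), 3.10 ± 0.39 above naive, and Mlkl reached 3.51 CPM (0 to 6.68), 3.08 ± 0.47 above naive. Their edgeR adjusted p values were 1.27e-08 and 7.77e-07. For both genes the lowest value was that of LF3, and the lowest of the other 14 punches was 2.54 CPM in each case, above every naive value.

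Gsdmd, which had not passed at 24 h, was at 11.78 CPM (1.71 to 18.95) and rose by 1.71 ± 0.30 in log2 (edgeR adjusted p = 7.69e-06). Pycard reached 13.36 CPM (2.20 to 17.56), a log2 fold change of 2.34 ± 0.24 (edgeR adjusted p = 8.88e-11). Casp1 was at 5.25 CPM (3.18 to 7.74), up by 1.67 ± 0.28 (edgeR adjusted p = 3.85e-06), and its lowest 72 h punches stayed below the highest naive ones. Casp4 was at 2.57 CPM (0.86 to 3.03), up by 2.98 ± 0.48 (edgeR adjusted p = 2.16e-06).

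The sensors at 72 h were at 6.13 CPM for Nlrp3 (0 to 8.11), 7.20 CPM for Aim2 (0 to 10.86) and 2.30 CPM for Mefv (0 to 5.35), the zeros being LF3. Nlrp3 was 2.20 ± 0.35 above naive and Aim2 1.86 ± 0.36 in log2 (edgeR adjusted p = 1.4e-06 and 4.5e-05). Mefv had a mean of 2.25 ± 1.35 CPM (SD, n = 15), at least 159-fold above the naive floor. Without LF3 the lowest 72 h values were 4.12 CPM for Nlrp3, 5.55 for Aim2 and 0.59 for Mefv, and all 3 groups then lay wholly above the naive range.

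**Figure D2:**
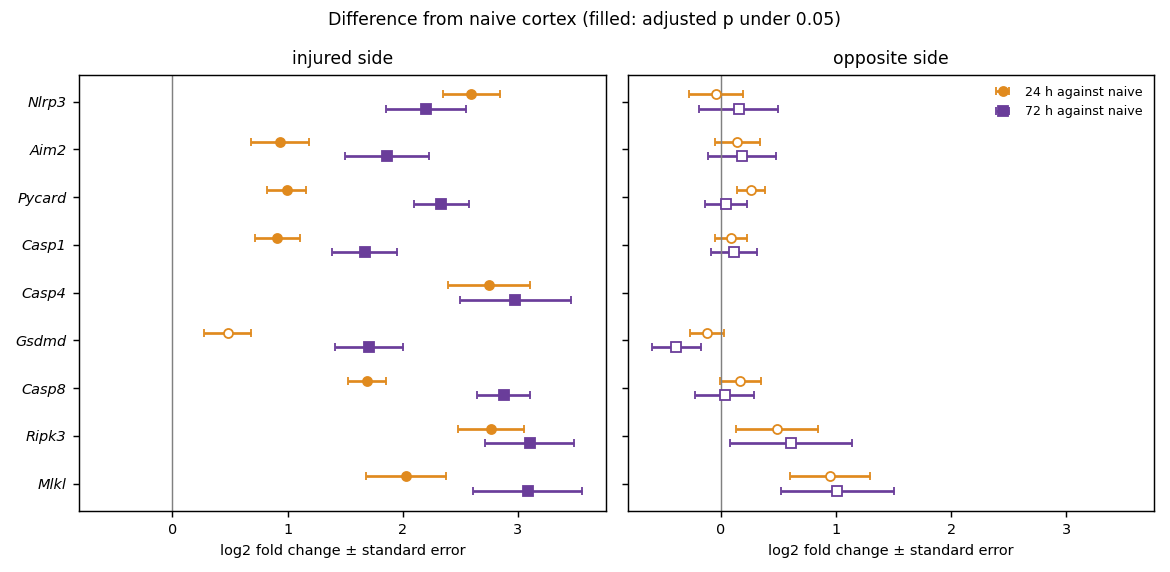
Log2 fold change against naive (x axis, bars are standard errors of the model) at 24 h (circles) and 72 h (squares) on each side; filled marks have an edgeR adjusted p under 0.05. Mefv is left out because naive punches of the injured side had no count, and Casp4 is absent on the opposite side because it did not pass the filter there; all filled marks are on the injured side, where Gsdmd at 24 h (0.48) is the one open mark.

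The direct comparison of 72 h with 24 h on the injured side separated the members. At 72 h 6 were called higher, where 21.6% of all genes were, and 1 was called lower, where 15.3% were. The 6 were Pycard, with a log2 fold change of 1.34 ± 0.21 (edgeR adjusted p = 3.41e-06), Gsdmd with 1.23 ± 0.26 (0.000321), Casp8 with 1.18 ± 0.20 (1.08e-05), Mlkl with 1.06 ± 0.39 (0.0307), Aim2 with 0.93 ± 0.32 (0.0188) and Casp1 with 0.76 ± 0.25 (0.0142). No member had every 72 h punch above every 24 h punch, as 3.36% of genes did. Without LF3, Casp8, Gsdmd, Pycard, Aim2 and Mlkl did, as did 7.36% of genes.

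No rise after 24 h was called for the other 4 members. Nlrp3 differed by -0.40 ± 0.31 (edgeR adjusted p = 0.335), Ripk3 by 0.34 ± 0.32 (0.429) and Casp4 by 0.23 ± 0.41 (0.697) in log2 between 24 and 72 h. Without LF3 these were -0.12, 0.54 and 0.39, and still not called. Mefv was lower at 72 h by -1.29 ± 0.49 with an edgeR adjusted p of 0.0386. That call was lost under 5 of the 7 other settings of scaling, tool, filter, batch or animals. Without LF3 the difference was -1.05 with an adjusted p of 0.0762, without PF1 -1.31 with 0.0553, and without RF1, the female with the highest 24 h value of Mefv, -0.92 with 0.12. It was also lost without PM2, QM2 or RM2.

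Time and batch are partly confounded, since batch A held naive and 24 h mice, batch C 72 h mice alone, and batch B all times (4 naive, 8 at 24 h and 5 at 72 h on the injured side). With the batch term, the fitted difference between 72 and 24 h rests mainly on the 5 batch B punches at 72 h. It can therefore differ from the difference between medians of all punches, and batch B alone is no independent check of it. Within batch B alone, 72 h against 24 h gave 3 members called higher, where 13.8% of genes were, Pycard (1.31), Gsdmd (1.19) and Casp8 (1.07, all log2), while Mlkl (0.97), Aim2 (0.81) and Casp1 (0.67) kept their direction without passing. The call of Casp1 also depended on animal LM2, the highest 72 h punch for Casp1, without which its difference was 0.49 (edgeR adjusted p = 0.154). Without LM2, Aim2 (0.76) and Mlkl (0.78) were not called either, which left 4 called members, and without PF2 Aim2 and Mlkl were not called. With no batch term Ripk3 was called higher at 72 h (0.82, adjusted p = 0.00274).

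**Figure D3:**
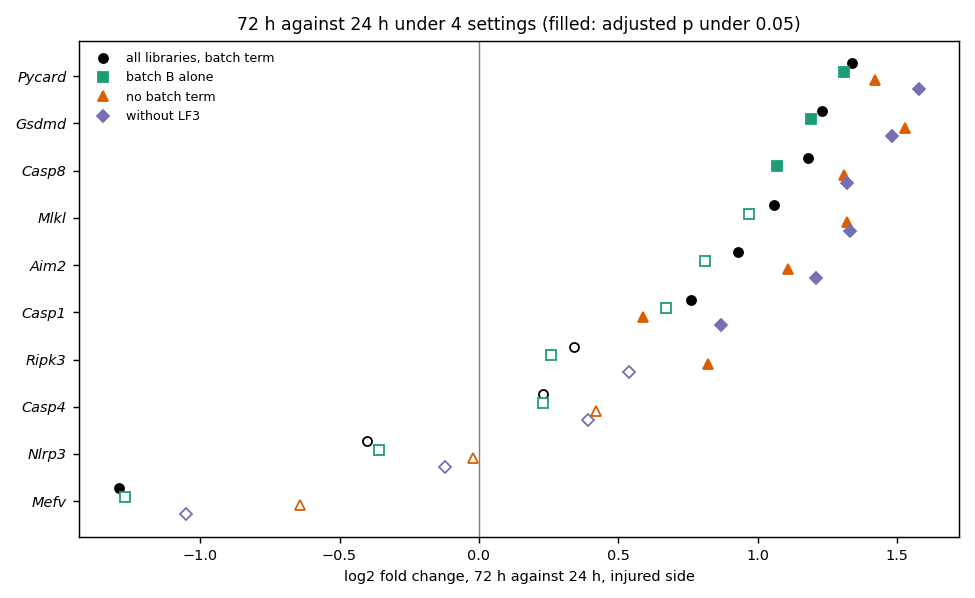
Log2 fold change of 72 h against 24 h on the injured side (x axis) for each gene with all libraries and a batch term (black circles), in batch B alone (green squares), with no batch term (orange triangles) and without animal LF3 (purple diamonds); filled marks have an edgeR adjusted p under 0.05. Pycard, Gsdmd and Casp8 are filled under all 4, and Mefv, the lowest row, is filled with all libraries alone.

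On the opposite side no member was called at either time. The filter on low counts kept 8 members there, all but Casp4 and Mefv. At 24 h 0 of 8 were called, where 2.11% of all genes were, at 72 h 0 of 8, where 0.228% were, and between 72 and 24 h 0 of 8, where 9.02% were. These shares of all genes rest on few libraries: the 389, 42 and 1663 genes called became 1175, 16 and 45 without the opposite-side library of LF3, and the 42 at 72 h became 1444 with no batch term and 1265 without PF1. The number of members called was 0 in each of these. At an unadjusted p under 0.05 there were 2, 1 and 0 members by edgeR, and DESeq2 gave the same 3 counts, though for the last it gave 6 of the 8 an adjusted p. Among the 8, the largest differences were those of Mlkl, which went from a naive median of 0.29 CPM (0 to 0.46) to 0.45 CPM (0.17 to 0.99) at 24 h and 0.30 CPM (0.19 to 0.86) at 72 h. Its log2 fold change was 0.95 ± 0.35 at 24 h (edgeR adjusted p = 0.168) and 1.01 ± 0.49 at 72 h (0.292), on 48 counts in all naive libraries together.

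The other members also overlapped with their naive ranges on the opposite side. Nlrp3 was at 1.37 CPM in naive mice (0.54 to 2.19), 1.22 CPM at 24 h (0.47 to 2.16) and 1.19 CPM at 72 h (0.24 to 2.38). Casp8 was at 2.47, 2.64 and 2.85 CPM (medians), with log2 differences from naive of 0.17 ± 0.18 and 0.03 ± 0.26. Gsdmd differed by -0.12 ± 0.15 and -0.39 ± 0.21. Casp4, tested there only without the filter, was at 0.17 CPM (0 to 0.52) in naive mice, 0.17 CPM (0 to 0.45) at 24 h and 0.45 CPM (0 to 0.87) at 72 h, on 39, 51 and 109 counts in all. Its difference at 72 h was 0.79 ± 0.61 (edgeR adjusted p = 0.776). Mefv had counts in 2 of 13, 5 of 15 and 5 of 16 libraries of the opposite side. Without the filter its log2 differences from naive were 1.46 ± 0.73 at 24 h (edgeR adjusted p = 0.469) and 1.61 ± 0.94 at 72 h (0.602), on 5 counts in all naive libraries.

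By the labels, the same animals gave both punches, which allowed the sides to be compared within each animal (43 animals, animal as a block). The libraries labelled PF1 do not match in sex, so this pair is in doubt. Without PF1, 0, 10 and 10 members were called between sides in naive mice, at 24 h and at 72 h, as with it. Of all genes, 0%, 23.8% and 31.7% were then called higher on the injured side. In naive mice 0 of the 9 members that could be fitted by edgeR were called different between sides, as did 0% of all genes, and 0 members and 571 genes had an unadjusted p under 0.05 by edgeR. DESeq2 likewise called 0 members, with 0 at an unadjusted p under 0.05. At 24 h all 10 were higher on the injured side, where 23.6% of genes were, and at 72 h all 10 again, where 31.1% were. The injured side was the higher one in 15 of 15 animals at 24 h for Nlrp3, Mefv, Casp4, Casp8, Ripk3 and Mlkl. The exceptions at 24 h were 1 animal each for Aim2, Pycard and Gsdmd and 3 for Casp1. At 72 h the injured side was higher in 15 of 15 animals for Pycard, Casp1, Casp4, Casp8, Gsdmd and Ripk3 and in 14 of 15 for the other 4, LF3 being the exception.

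Casp8 was 1.29 ± 0.12 higher in log2 on the injured side at 24 h and 2.69 ± 0.13 at 72 h (edgeR adjusted p = 3.77e-12 and 6.39e-23). Ripk3 differed by 2.43 ± 0.23 and 3.44 ± 0.24, Nlrp3 by 2.32 ± 0.19 and 2.27 ± 0.19, and Mefv by 5.97 ± 0.40 and 5.79 ± 0.44. The smallest side difference at both times was that of Casp1, 0.57 ± 0.15 and 1.18 ± 0.15. Set against the side difference of naive mice, 8 members were called higher at 24 h, where 15.9% of genes were, and 9 at 72 h, where 25% were. Mlkl missed at 24 h (1.08 ± 0.48, edgeR adjusted p = 0.0845), and Mefv could not be fitted by edgeR in this comparison because its naive counts were 0 on the injured side. DESeq2, which gave Mefv a value, called 9 members at 24 h, all but Mlkl, and 10 at 72 h, where it called 18.1% and 27.4% of genes higher. In batch B alone 5 members were called at 24 h, where 5.34% of genes were, and 7 at 72 h, where 12.6% were. Aim2 and Casp4 were then not called at either time, nor Pycard and Casp1 at 24 h, while Mlkl at 24 h was (2.70, edgeR adjusted p = 0.0236).

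**Figure D4:**
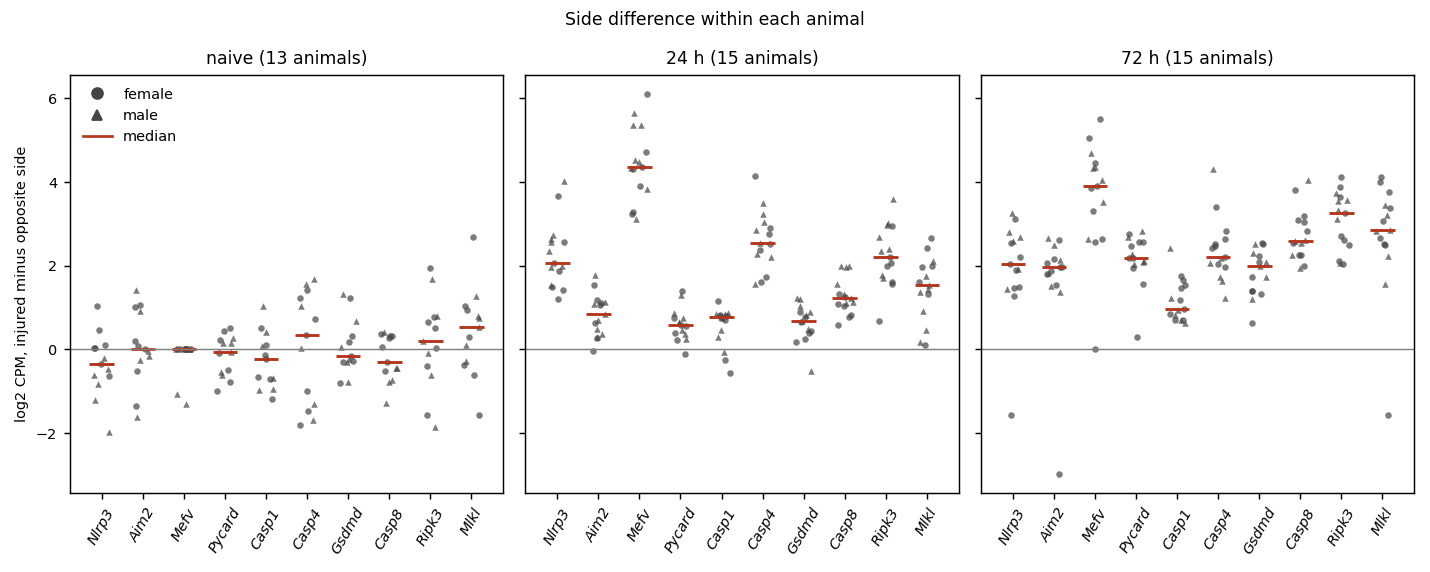
Injured minus opposite side in log2 CPM (y axis, prior count 2) within each animal, for naive mice and at 24 and 72 h; circles are females, triangles males and red lines medians. Naive medians lie from -0.35 (Nlrp3) to 0.53 (Mlkl), and at 72 h all medians are at 0.98 (Casp1) or above, with LF3 as the low circle for Nlrp3, Aim2 and Mlkl.

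Whether females and males responded differently was a question of the design. In females 8 members were called higher at 24 h, where 16.2% of genes were, and in males 9, where 16% were. At 72 h it was 10 in each sex, where 26.6% and 20.7% of genes were. The edgeR test of the difference itself called 0 of the 9 members it could fit at 24 h, as it called 0% of genes, and 0 of 9 at 72 h, where it was likewise 0%. Mefv could not be fitted because its naive counts on the injured side were 0 in both sexes. For the opposite side, the tests at both times also called 0 of 8 members and 0% of genes. Without PF1, which held male transcripts, 0 members were called too. On the injured side the 9 members had 0 unadjusted p values under 0.05 at either time, while 298 genes had one at 24 h and 576 at 72 h. In contralateral punches 1 member had one at each time, Casp8 at 24 h (a female minus male difference of 0.97 ± 0.34, adjusted p = 1 in edgeR) and Nlrp3 at 72 h (1.00 ± 0.45, adjusted p = 0.934 in edgeR). DESeq2 called 0 members in all 4 tests.

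The largest differences between the sexes on the injured side at 24 h were those of Ripk3 and Nlrp3. Ripk3 at 24 h was higher than naive by 2.33 ± 0.39 in females and 3.19 ± 0.41 in males, and the female minus male difference was -0.86 ± 0.57. Nlrp3 rose by 2.26 ± 0.34 in females and 2.93 ± 0.36 in males, a difference of -0.67 ± 0.48. For Casp8 the sexes differed by less than the standard error of their difference, with 1.59 ± 0.23 and 1.79 ± 0.23 at 24 h and 2.91 ± 0.28 and 2.84 ± 0.29 at 72 h. Aim2 was called in males (1.00 ± 0.35) and not in females (0.87 ± 0.35), with a difference of -0.13 ± 0.48 between them. Mefv at 24 h had a mean of 3.13 CPM in 7 females and 4.03 CPM in 8 males.

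Plasma levels of 5 steroid hormones are given in the labels as log10 values. For estradiol and androstenedione many animals, most of them in batch C, share the same low value, which limits what their slopes could show. The slope of expression on each hormone within groups called 0 members for androstenedione, DHEA, progesterone and estradiol over 43 libraries and for testosterone in 20 male libraries. The share of genes called was 0% for androstenedione, 0% for DHEA, 0% for progesterone, 0% for estradiol and 0% for testosterone. At an unadjusted p under 0.05 there was 1 member in the 5 tests, Casp1 for progesterone (0.29 in log2 per 10-fold, edgeR adjusted p = 0.523), and 554, 1379, 1806, 502 and 564 genes in the order above.

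Genes around the members were counted in 4 lists. Contralaterally 0 of the 7, 11, 8 and 12 genes tested in these lists were called in any comparison of times, so the counts that follow are of the injured side. Of all genes tested there, 22.8% were called higher and 20.1% lower at 24 h, and 27.8% and 20.7% at 72 h. For 72 h against 24 h the shares were 21.6% and 15.3%. Of 9 other inflammasome sensors measured (11 listed), 5 were called higher and 0 lower at 24 h, and 6 higher and 1 lower at 72 h, with medians of 0.89 and 2.72 in log2. The 3 with the smallest p at 24 h were Ifi204, an interferon-inducible DNA-sensor family gene, Naip2 and Naip5, receptors for bacterial ligands in the NLRC4 inflammasome. Ifi204 was 4.67 ± 0.39 and Naip2 2.07 ± 0.21 above naive at 24 h, and 5.06 ± 0.49 and 3.37 ± 0.29 at 72 h. Naip5 stood at 0.89 ± 0.19 and 2.91 ± 0.27. Between 72 and 24 h, Ifi204 differed by 0.39 ± 0.38 without passing, and Naip2 (1.30 ± 0.24) and Naip5 (2.01 ± 0.23) rose. Contralaterally, Naip2 differed from naive by 0.51 ± 0.23 and 0.40 ± 0.33 and Naip5 by 0.35 ± 0.19 and 0.69 ± 0.27, none of which passed, with 72 against 24 h at -0.11 ± 0.29 and 0.34 ± 0.24. Reads from the near-identical Naip copies can be split by counting, so their values are uncertain.

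Of 12 genes for priming, licensing and products of the inflammasome, 7 rose and 1 fell at 24 h, and 9 rose and 0 fell at 72 h. Il1b, the cytokine that caspase-1 matures, went from 0.24 CPM (0 to 0.71) in naive punches to 11.05 CPM (2.65 to 34.67) at 24 h and 2.11 CPM (0 to 9.82) at 72 h. It was 5.08 ± 0.48 above naive at 24 h and 2.60 ± 0.67 at 72 h, and it fell between them by 2.49 ± 0.58 in log2 (edgeR adjusted p = 0.000892), where 6 members of the set rose. Il1rn, the antagonist of the interleukin-1 receptor, also fell between 24 and 72 h, by 2.22 ± 0.53 (edgeR adjusted p = 0.00147), and was called higher than naive at both times (7.12e-14 and 1.95e-08). Il1rn had a median of 23.65 CPM at 24 h (4.19 to 55.61) and 3.98 CPM at 72 h (1.67 to 8.41), and no fold over naive is given because the naive group held 4 counts in all. Gbp2, an interferon-inducible GTPase, was 2.38 ± 0.17 and 2.57 ± 0.24 above naive and changed by 0.18 ± 0.22 between the times. In contralateral cortex Il1b differed from naive by 0.35 ± 0.35 and 0.05 ± 0.51 and Gbp2 by 0.18 ± 0.18 and -0.01 ± 0.27, and 72 against 24 h gave -0.30 ± 0.48 and -0.20 ± 0.24, none of them called.

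Of 8 other caspases and membrane-rupture genes, 4 rose and 0 fell at 24 h and 6 rose and 0 fell at 72 h, and 7 rose between 24 and 72 h. Ninj1, which ruptures the membrane late in lytic death, was at 9.87 CPM (4.69 to 13.18) in naive punches, 20.7 CPM (12.83 to 28.56) at 24 h and 35.17 CPM (25.31 to 58.82) at 72 h. Its log2 fold change was 1.09 ± 0.14 at 24 h, 1.75 ± 0.20 at 72 h and 0.66 ± 0.19 between them. The log2 fold change of Casp12 was 0.92 ± 0.23 at 24 h and 1.87 ± 0.33 at 72 h, with 0.95 ± 0.30 between them. Their contralateral differences from naive were 0.30 ± 0.19 and 0.76 ± 0.27 for Ninj1 and 0.53 ± 0.25 and 0.45 ± 0.36 for Casp12, and 72 against 24 h gave 0.46 ± 0.25 and -0.08 ± 0.32, none of them called. The contralateral library of LF3 held the highest Ninj1 value at 72 h, 54.51 CPM against a median of 10.12, and CM1 the lowest naive one, 2.91 CPM. No Ninj1 difference without these libraries is given here.

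Of 13 genes of necroptosis and death-receptor signalling, 9 rose and 1 fell at 24 h, and 9 rose and 1 fell at 72 h. The TNF receptor gene Tnfrsf1a was 2.52 ± 0.09 and 2.70 ± 0.13 above naive, with 0.18 ± 0.12 between the times. Zbp1, a nucleic-acid sensor that can activate RIPK3, went from 0.13 CPM (0 to 0.65) to 2.85 CPM (1.22 to 6.78) and 5.50 CPM (3.33 to 9.07). It was 4.00 ± 0.30 and 4.86 ± 0.39 above naive and rose by 0.86 ± 0.30 between 24 and 72 h. Cflar, which encodes the caspase-8 regulator c-FLIP, was 0.93 ± 0.08 and 1.46 ± 0.12 above naive, with 0.52 ± 0.11 between the times. Contralateral Tnfrsf1a differed by 0.19 ± 0.16 and 0.33 ± 0.23 and Cflar by 0.02 ± 0.09 and 0.07 ± 0.13, with 0.14 ± 0.20 and 0.05 ± 0.12 between the times, none of them called. Ifi204, Il1rn and Zbp1 did not pass the filter on low counts on the opposite side.

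Many cell type markers also changed on the injured side, and their part in the results above was not tested. The red cell list, a sign of blood in the punch, had median sums of 31.29, 76.31 and 131.97 CPM in naive punches, at 24 h and at 72 h. On the opposite side these were 31.53, 28.72 and 37.98 CPM. Of its 5 genes, 5 were called higher on the injured side at each time without LF3, and 4 without DM2. The punches hold cortex by their neuron markers, whose sum was 5782.22 to 6683.96 CPM in naive injured-side libraries. The median neuron sum was 6186.71 CPM in naive punches, 5957.84 at 24 h and 4351.61 at 72 h (2747.41 to 13368.35), with 3 of 5 neuron genes lower and 1 higher than naive at 72 h, or 4 lower and 0 higher without LF3. Marker sums of other resident cells rose: medians in naive punches, at 24 h and at 72 h were 955.18, 2071.52 and 3768.08 CPM for astrocytes, 109.12, 152.96 and 331.12 CPM for endothelium and 2104.03, 2702.13 and 4166.56 CPM for oligodendrocytes. The rise of the astrocyte sum was mostly that of Gfap (medians 87.64, 1412.96 and 2871.67 CPM). From naive to 24 h, the medians of Gja1 (175.26 to 69.08 CPM) and Slc1a3 (545.88 to 366.81 CPM) were lower, and those of Aldh1l1 and Aqp4 higher. At 24 h without LF3, 2 of 5 astrocyte genes were called higher and 2 lower. In the same setting 2 of 4 endothelial and 1 of 4 oligodendrocyte genes were called higher. At 72 h with LF3, 3 of 5 astrocyte, 4 of 4 endothelial and 3 of 4 oligodendrocyte genes were called higher. Without LF3 these were 4, 4 and 3. The summed neutrophil list was 5.45 to 23.24 CPM in naive injured-side punches, 25.93 to 704.73 CPM at 24 h and 26.38 to 78.23 CPM at 72 h, and 9 of its 9 measured genes (10 listed) were called higher at 24 h. A single male, DM2, held the 704.73 CPM, and without it 8 genes were measured and 6 called higher at 24 h, Ngp and Ltf not passing. Camp had a median of 0.06 CPM in both naive and 24 h punches, and Ngp had 0.18 and 0.22 CPM. Ly6g, a defining neutrophil marker, was at 0 in 8 of 15 punches at 24 h and 11 of 15 at 72 h. Between 24 and 72 h, 3 of the neutrophil genes fell and 1 rose. Csf3r, present in naive cortex too, made up most of the naive and 72 h sums, with medians of 7.28, 25.19 and 33.33 CPM. From 24 to 72 h the medians of S100a9 (15.92 to 2.21 CPM), S100a8 (10.99 to 2.03) and Cxcr2 (7.53 to 0.71) were lower, as was that of Ltf. Those of Csf3r, Mmp8, Retnlg, Ngp and Camp were higher.

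The monocyte and macrophage list had 6 of 8 genes higher at 24 h and 7 of 8 at 72 h, and its sum went from 106.55 to 195.35 CPM in naive punches to 179.25 to 480.97 CPM at 24 h and 454.69 to 1194.06 CPM at 72 h. Fn1 made up most of this sum, with medians of 101.3, 222.12 and 592.33 CPM. Itga4 had a lower median at 24 h than in naive punches (19.26, 11.76 and 18.5 CPM). Without LF3, 7 of the 8 genes were called higher and 1 lower at 24 h. From 24 to 72 h the medians of Chil3 (3.88 to 2.96 CPM) and F10 (3.94 to 2.16 CPM) were lower. Those of Ccr2, Fn1, Itga4, Ly6c2, Plac8 and Vcan were higher. Ccr2, a monocyte receptor, had a median of 0.18, 6.41 and 10.05 CPM. The homeostatic microglia list went the other way at 24 h: 6 of its 8 genes fell and 1 rose, where 20.1% of all genes were called lower, and its sum was 176.07 to 241.70 CPM against 228.42 to 284.13 CPM in naive punches. At 72 h 7 of the 8 were higher than naive, or 8 without LF3, and the sum was 333.59 to 1044.93 CPM. The pan-myeloid list had 5 of 6 genes higher at 24 h and 6 of 6 at 72 h, and all 6 rose between the times. Without LF3, 5 of the 6 were called higher and 1 lower at 24 h. Csf1r, with medians of 120.8, 102.82 and 374.11 CPM, made up most of the sum of this list. Of the 15 punches at 24 h, DM2, with the highest neutrophil sum, had the highest values of Gsdmd (5.71 CPM), Ripk3 (4.33 CPM) and Mlkl (2.38 CPM). RF1, second with 162.28 CPM against a median of 62.21 CPM, had the highest of Aim2, Casp4, Casp8 and Mefv. DF3, below that median with 53.12 CPM, had the highest of Casp1 and Pycard.

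**Figure D5:**
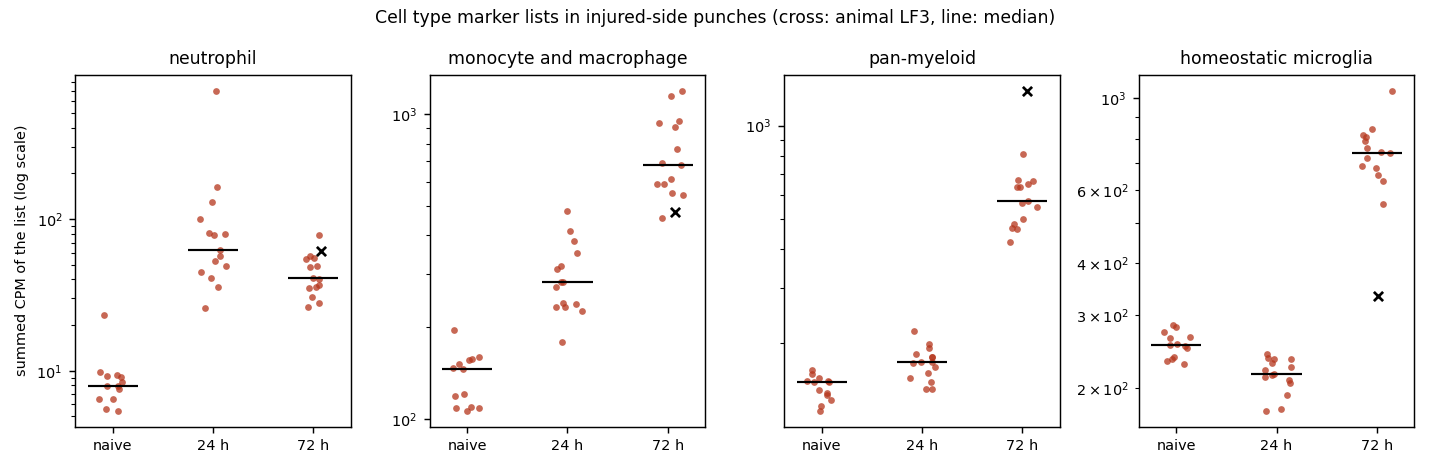
Summed CPM (y axis, log scale) of 4 marker lists in each injured-side punch of naive mice and at 24 and 72 h; lines are medians and the cross is animal LF3. Neutrophil sums have medians of 7.90, 62.21 and 41.08 CPM, and homeostatic microglia sums have medians of 253.95, 215.63 and 738.23 CPM. Csf3r makes up most of the naive and 72 h neutrophil sums, Fn1 most of the monocyte and macrophage sums, and Csf1r most of the pan-myeloid sums.

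How far the members varied between animals differed among them. Without LF3, the coefficient of variation at 72 h was 51.6% for Mefv, against 14% for Casp4, 18.9% for Aim2, 19.2% for Nlrp3, 20.6% for Pycard and 20.7% for Casp8. The genes most like each member within the injured groups were sought by Pearson correlation of log2 CPM after removal of group means, over 30 injured-side libraries and 14343 genes. These values were chosen for being the highest, share depth and library quality, and carry no test. With LF3 included, Nlrp3 was closest to Mlec (r = 0.97), Aim2 to Alg12 (0.98), Pycard to Cars2 (0.95) and Gsdmd to Dnase2a (0.96), and the value for Mlec fell to 0.76 without the 2 farthest libraries. Without LF3, over 29 libraries, the closest genes were Ncf4 and Ikbke for Nlrp3 (r = 0.82 and 0.79), Stx5a and Lcp1 for Aim2 (0.81 and 0.81), Neurl3 and Tnfaip2 for Mefv (0.90 and 0.88), Tpcn1 and Tifa for Pycard (0.87 and 0.80) and Psrc1 and Mcur1 for Casp1 (0.84 and 0.83). For Casp4 they were Ccl3 and Hcar2 (0.78 and 0.76), for Casp8 Cd300c2 and H2-Q7 (0.85 and 0.84), for Gsdmd Tnfaip8 and Dock2 (0.93 and 0.92), for Ripk3 Ehbp1l1 and Lrrc25 (0.86 and 0.86) and for Mlkl Nans and Ost4 (0.81 and 0.81). Psrc1 and Lrrc25 were the genes named for the same member both with and without LF3.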

How the data were processed

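RNA-seq libraries from 44 mice (88 libraries, 1 per hemisphere) were read from 1 table of raw counts per gene as deposited. The submitters' processing notes name HISAT2 2.0.5 and the mm10 build. How genes were counted, with which annotation and strand setting, is not given in the sources used here. Of 54532 genes, 54409 had a symbol in GENCODE M21, and the rest held 0.062% of counts. No 2 libraries agreed within sampling noise. The right punch of animal PM1 was left out of all groups because its labels conflict on sex. Each side was fitted with edgeR 4.0.16 (filterByExpr, TMM, robust quasi-likelihood, R 4.3.3) on sex by treatment groups with batch. Sides were compared with animal as a block: same-animal punches deviated together (median r = 0.31 over 43 animals, 0.01 to 0.86, above 0.1 in 41). Standard errors are the log2 fold change over the square root of F. The script was tested on simulated data. DESeq2 1.42.0, other scaling, no filter, no batch term, batch B alone and libraries left out were tried. The members and lists were chosen with earlier results of these data known. All members are named, with up to 3 genes per list by smallest p at 24 h, and the 2 most correlated genes per member. A result for a further listed gene is not reported here.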

Additional observations from a re-analysis of the deposited data

Results flagged for a closer look

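Of 117 member-by-group sets of 4 to 10 libraries, 21 had a lowest or highest library far from the rest by Dixon's test, which chance gives in about 1 set in 20. On the injured side at 72 h, the female LF3 was the low one for Nlrp3 (0 CPM), Aim2 (0 CPM), Mlkl (0 CPM), Casp4 (0.86 CPM), Ripk3 (0.86 CPM), Gsdmd (1.71 CPM), Pycard (2.20 CPM) and Casp8 (8.18 CPM). In the same animal's opposite side, Nlrp3 (0.24 CPM), Casp8 (0.47 CPM), Casp1 (1.06 CPM) and Gsdmd (1.06 CPM) were low among the 9 females at 72 h. The injured-side library of LF3 had the fewest genes with a count, 18788.

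RF1 was the high female at 24 h on the injured side for Casp8 (11.44 CPM, the others 4.75 to 6.76), Nlrp3 (8.95 CPM, the others 3.95 to 5.49) and Mefv (8.23 CPM, the others 1.66 to 3.05). The other single libraries that stood apart were FM2 for Gsdmd (1.91 CPM, a male at 24 h on the injured side, the others 4.06 to 5.71), KF3 for Aim2 (0.66 CPM, a naive female, the others 1.64 to 2.87) and KM3 for Pycard (1.40 CPM, a naive male, the others 2.29 to 2.63). On the opposite side they were LM2 for Casp4 (0 CPM, a male at 72 h, the others 0.43 to 0.87), DM2 for Mefv (0.45 CPM, a male at 24 h, the others 0 to 0.06) and QM1 for Pycard (1.56 CPM, a male at 24 h, the others 2.71 to 3.34).

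The effect of injury differed between 24 and 72 h on the injured side by the direct edgeR test for Pycard (1.34 in log2), Gsdmd (1.23), Casp8 (1.18), Mlkl (1.06), Aim2 (0.93), Casp1 (0.76) and Mefv (-1.29).

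The right punch of PM1, a mouse at 72 h whose labels conflict on sex, entered no comparison. This punch held female transcripts (489.39 CPM of Xist and 0 of Y-linked genes). The opposite-side library of PM1 held male ones (0.18 and 145.04 CPM). In the right punch of PM1, 10 of 10 members were above the highest naive right punch, and 10 were within the range of the other 72 h punches. Casp8 was at 18.45 CPM, Pycard at 12.01 CPM, Gsdmd at 11.89 CPM and Mefv at 1.86 CPM.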

How the results depend on the processing

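Of 688 values of single members under other settings, 646 kept their direction and their side of the threshold, 18 lost the call, 6 gained it and 18 changed sign. Members called at 24 h on the injured side numbered 8 to 10 across settings and 9 to 10 when each of the 43 libraries was left out in turn. Across the settings, 12.8% to 25.1% of all genes tested were called higher at 24 h. At 72 h all 10 members were called in each of these, where 14.3% to 32.4% of all genes were called higher across settings. For 72 h against 24 h, 7 were called, 3 in batch B alone, 5 without the filter, 6 without PF1 or without LF3 and CM1, and 4 to 7 with single libraries left out. The share of all genes called higher moved too, from 21.6% in the main fit to 13.8% in batch B alone and 10.2% without the filter. It was 23.6% without PF1 and 18.1% without LF3 and CM1. The drop in members called in batch B alone comes with fewer samples, and its cause was not tested. On the opposite side 0 to 0 were called with each of 44 libraries left out. Leaving out LF3 and CM1 was chosen after seeing the data.

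With no replicate block, the paired comparison of sides called 0, 10 and 10 members in naive mice, at 24 h and at 72 h, and 16 side differences against naive in place of 17, since Gsdmd at 24 h (0.55) had an adjusted p of 0.103. For these side differences DESeq2 called 19 and batch B alone 12, out of 20. The shares of all genes called higher at 24 and 72 h were 15.9% and 25% in the main fit and 13.5% and 22.4% with no block. They were 18.1% and 27.4% by DESeq2 and 5.34% and 12.6% in batch B alone. Between the sides with no block, 21% and 28.9% of all genes were called higher on the injured side at 24 and 72 h. Without the block the naive side difference of Ripk3 was -0.007.

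All other changes of sign were in values that passed no test. On the opposite side at 24 h, Nlrp3 was 0.23 in batch B alone. At 72 h against naive with no batch term, Nlrp3 was -0.098, Aim2 -0.075, Pycard -0.084 and Gsdmd 0.102, and without PF1 Casp8 was -0.018. For 72 h against 24 h with no batch term, Aim2 was -0.093, Gsdmd 0.155, Ripk3 -0.109 and Mlkl -0.114. In batch B alone Aim2 was -0.056 and Casp1 -0.037, and without LF3 and CM1 Casp8 was 0.02. For naive sides, batch B alone gave Gsdmd -0.315 and Mlkl -0.529, and leaving out LF3 and CM1 gave Gsdmd -0.037 and Ripk3 -0.091. Casp4, Mefv, Mlkl and Ripk3 had few counts in naive and opposite-side libraries, which limits what could be detected there.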
